A study of Mus musculus with 7 samples.

Results

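The genes of respiratory complex I were followed in 7 individual mouse oocytes at MII, the metaphase arrest in which an ovulated egg awaits fertilization. A gene was taken as a member when the symbol of its Ensembl identifier starts with Nduf, which gave 50 of the 37620 genes in the table. They comprise 36 structural subunits, 8 assembly factors (Ndufaf1 to Ndufaf8), Ndufa4 and Ndufa4l2, and 4 copies of subunit genes (Ndufa11b, Ndufab1-ps, Ndufb4c and Ndufs6b). The 3 WT oocytes carried Hiraf/f, floxed alleles of Hira without Cre (WT1, WT2 and WT4). The 4 KO oocytes carried Hiraf/f, Zp3-Cre (KO1 to KO4), so that both groups shared the floxed alleles and their genotype labels differed only in Cre. The sample titles of all 7 oocytes, WT included, also carry the tag [Zp3-Cre], which does not set the groups apart. The Zp3 promoter is active in growing oocytes, and Hira encodes the chaperone that deposits histone H3.3 outside DNA replication. Each library is 1 oocyte and the labels name no animal, strain, age or day. A genotype therefore counts as 1 sample, no test between genotypes is given, and every SD is the spread between single oocytes.

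Complex I takes electrons from NADH in the mitochondrial matrix and hands them to ubiquinone in the inner membrane, and it pumps protons as it does so. Electrons enter through the N module at the tip of the matrix arm, pass a chain of iron-sulfur clusters and reach ubiquinone in the Q module, while the proximal and distal parts of the membrane arm move the protons. The core subunits carry out these reactions, the accessory subunits surround and stabilise them, and assembly factors build the complex but are not part of it. An oocyte hands all of its mitochondria to the embryo, and the nuclear transcripts it stores have to serve until the embryo transcribes its own genome.

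The promoters of the members that lay furthest from WT in each direction are printed first, since they belong to the genes on which the comparison turns: Ndufa5 and Ndufa7, higher in KO oocytes, and Ndufs3 and Ndufs4, lower in KO oocytes. Each runs from 250 bases before to 50 bases after a transcription start, in the direction of the gene, from RefSeq on GRCm38.p6. Of the 50 members, 40 had a promoter in that table, and the most upstream start was taken where there were several. Capitals mark matches, on either strand, to 4 motifs: GCATGCGC (NRF1), CCGGAAG (ETS factors such as GABPA), AAGATGGC (YY1) and GGGCGG (the GC box).
Ndufa5 promoter (chr6:24527641-24527940, minus strand): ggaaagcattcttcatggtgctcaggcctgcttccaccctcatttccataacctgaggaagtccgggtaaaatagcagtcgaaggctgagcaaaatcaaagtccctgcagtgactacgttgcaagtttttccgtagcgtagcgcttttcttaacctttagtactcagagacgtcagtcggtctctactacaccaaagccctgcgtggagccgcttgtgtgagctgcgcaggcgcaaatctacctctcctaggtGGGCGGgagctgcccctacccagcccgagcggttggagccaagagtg
Ndufa7 promoter (chr17:33824322-33824621, plus strand): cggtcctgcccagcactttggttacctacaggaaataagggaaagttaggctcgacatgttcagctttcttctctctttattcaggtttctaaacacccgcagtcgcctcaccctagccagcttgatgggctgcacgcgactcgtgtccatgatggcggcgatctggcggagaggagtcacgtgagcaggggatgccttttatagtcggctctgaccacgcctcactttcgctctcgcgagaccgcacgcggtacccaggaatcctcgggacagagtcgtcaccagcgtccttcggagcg
Ndufs3 promoter (chr2:90904672-90904971, minus strand): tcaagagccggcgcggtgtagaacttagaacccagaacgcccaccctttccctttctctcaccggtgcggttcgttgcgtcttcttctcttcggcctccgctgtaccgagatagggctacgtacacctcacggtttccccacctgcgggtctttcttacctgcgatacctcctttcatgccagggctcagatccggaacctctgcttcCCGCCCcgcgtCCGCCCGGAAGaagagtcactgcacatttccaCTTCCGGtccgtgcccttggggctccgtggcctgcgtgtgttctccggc
Ndufs4 promoter (chr13:114388045-114388344, minus strand): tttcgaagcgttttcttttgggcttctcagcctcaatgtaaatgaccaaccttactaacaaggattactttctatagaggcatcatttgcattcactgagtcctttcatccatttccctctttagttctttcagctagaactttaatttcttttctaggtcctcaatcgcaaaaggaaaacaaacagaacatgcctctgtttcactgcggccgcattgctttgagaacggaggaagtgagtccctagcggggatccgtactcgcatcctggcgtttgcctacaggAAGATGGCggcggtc

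The higher pair shared none of the 4 motifs: the Ndufa5 window held 1 GC box and the Ndufa7 window no match. The Ndufs3 window held 2 ETS matches and 2 GC boxes, of which 1 overlaps an ETS match, and the Ndufs4 window held 1 YY1 match. Over the 32 subunit genes with a promoter, the YY1 letters were found in 7 (21.9%), against 2.9% of all 27025 genes with a promoter and 5.3% of the 5949 that were also above the expression filter given below. Those 7 were Ndufs4, Ndufs6, Ndufs7, Ndufa3, Ndufa9, Ndufb8 and Ndufc1, which include members on both sides of WT. GC boxes were in 15 (46.9%), between the 35.9% of all promoters and the 62.9% of genes above the filter. ETS matches were in 4 (12.5%), likewise between 9.1% and 19.3%. NRF1 matches were in 3 (9.4%), against 2.8% and 6.5%. The 32 include promoters of genes below the filter, such as Ndufb7 and Ndufs7. A match describes these letters only.

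The values are FPKM, a level that allows for gene length and for the depth of each library, so every value is relative to the other RNA of the same oocyte. Hira itself was lower in every KO oocyte, with 42, 55 and 35 reads in WT1, WT2 and WT4 and 12, 15, 5 and 17 in KO1 to KO4. Its summed reads were 132 in WT (95% Poisson interval 110 to 157) and 49 in KO oocytes (36.3 to 64.8). The libraries held between 15340782 and 25940519 reads in genes. KO oocytes had more genes at 1 FPKM or above (7664 to 8222) than WT oocytes (6959 to 7286). All 10 oocyte markers, were above the filter, and 5 of them (Bmp15, Dppa3, Gdf9, Oosp1 and Zp2) were over 1.5-fold lower in KO oocytes, beside 7.92% of all genes. Of these 5, all but Zp2 did not overlap between genotypes, beside 5.22% of all genes that were over 1.5-fold lower without overlap. With median-ratio scaling 5 markers were over 1.5-fold lower, beside 13.1% of all genes. With quantile normalization 1 marker was over 1.5-fold lower, beside 12.7% of all genes. Of 20 cumulus and granulosa cell markers, 8 were at 0 in every oocyte: Amh, Amhr2, Foxl2, Inhbb, Krt18, Lhcgr, Pgr and Tnfaip6. The summed FPKM of the 20 was 4.84 to 7.30 in WT and 13.2 to 16.2 in KO oocytes. Most of that sum was Nr5a2, Kitl and Fshr, the 3 of these markers above the filter. The other 17 summed to 0.563, 0.974 and 0.172 FPKM in WT1, WT2 and WT4. In KO1 to KO4 they summed to 0.785, 0.326, 0.411 and 0.106 FPKM, which overlapped WT. Nr5a2 was at 2.53 ± 0.994 FPKM in the WT oocytes and 7.25 ± 0.904 FPKM in KO oocytes, and Kitl at 3.11 ± 0.181 and 4.52 ± 1.18 FPKM, neither with overlap. Of all 8033 genes above the filter, 1521 were higher without overlap. Fshr was at 0 in the WT oocytes and KO1 and at 2.99, 4.34 and 4.51 FPKM in KO2, KO3 and KO4. The part of these markers in the Nduf values was not tested.

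Transcripts of nearly all complex I subunits were present, at levels that differed by far more between genes than between genotypes. A gene was compared when its FPKM was at least 1 in at least 3 oocytes, which 36 of the 50 members and 31 of the 36 subunits reached. Differences between genotypes were taken as the KO mean of log2(FPKM + 1) less the WT mean. The mean over the 7 oocytes was highest for Ndufa1 among those 31 subunits, at 114 FPKM, and their median was 9.78 FPKM. The 29 accessory subunits had a median of 12.7 FPKM and the 7 nuclear core subunits one of 1.43. With mt-Nd4l apart, core subunit transcripts from the mitochondrial genome were more abundant than any of these 31. Of those 7 genes, 6 lay between 322 FPKM (mt-Nd6) and 1403 FPKM (mt-Nd3) and overlapped between genotypes. As deposited, mt-Nd2 alone among them was over 1.5-fold apart, lower in KO oocytes (677 ± 263 against 981 ± 60.6 FPKM, a difference of -0.61). With median-ratio scaling the mt-Nd2 difference was -0.82, and mt-Nd2 was again the only one of the 6 over 1.5-fold apart. With quantile normalization its difference was -0.40, and mt-Nd6 was over 1.5-fold higher instead, with a difference of 0.65 (0.45 as deposited). Of all genes above the filter, 7.92% were over 1.5-fold lower as deposited and 13.1% with median-ratio scaling. With quantile normalization 14.4% were over 1.5-fold higher. The mt-Nd4l gene was below the filter. The subunits below the filter were Ndufb2, Ndufb7, Ndufb10, Ndufs7 and Ndufv1. Of these, Ndufb2, Ndufb7 and Ndufb10 were under 1 FPKM in all 7 oocytes.

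**Figure D1:**
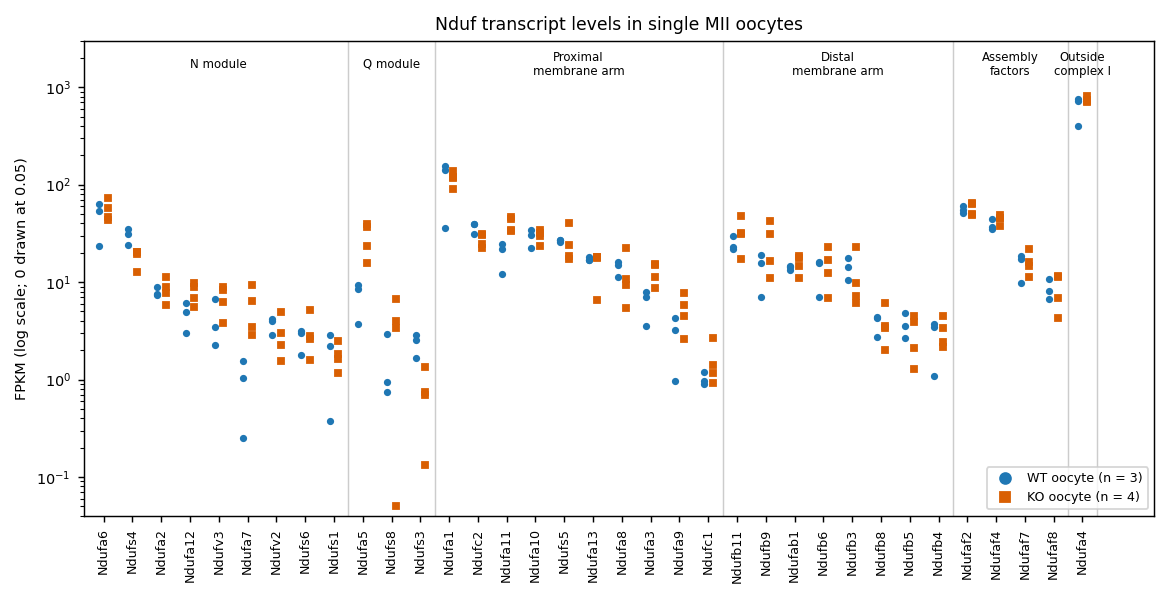
FPKM (log axis) of 35 Nduf genes above the filter in each WT oocyte (circles, n = 3) and each KO oocyte (squares, n = 4), grouped by place in the complex and ordered by mean level. Levels span from Ndufa4 at a mean of 695 FPKM to Ndufc1 at 1.32 FPKM, and in most genes circles and squares overlap.

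The core subunits that carry the electrons were scarce in both genotypes. Ndufv1, which binds NADH and the flavin, was at 0.908, 0.418 and 1.09 FPKM in WT1, WT2 and WT4 and at 0.036, 0.421, 0.315 and 0.187 FPKM in KO1 to KO4. The groups overlapped by 1 oocyte, KO2 against WT2, and the KO1 value rests on 4 reads. Ndufv2, which carries an iron-sulfur cluster of the N module, was at 4.02, 2.85 and 4.23 FPKM in the WT oocytes and 2.99, 4.89, 2.29 and 1.54 FPKM in KO oocytes. KO3 and KO4 were below every WT oocyte, KO2 was above every WT oocyte and KO1 lay between, so the groups overlapped. Ndufs1, the large iron-sulfur subunit, was at 0.380, 2.20 and 2.89 FPKM in the WT oocytes and 2.46, 1.85, 1.62 and 1.16 FPKM in KO oocytes. WT1, with 35 reads, was the lowest oocyte and WT4 the highest.

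Of the core genes of the Q module above the filter, only Ndufs3 did not overlap between genotypes. Ndufs3, which helps bind the Q module together, was at 2.53, 1.68 and 2.86 FPKM in WT1, WT2 and WT4 and at 1.36, 0.696, 0.750 and 0.133 FPKM in KO1 to KO4. Every KO oocyte was below every WT oocyte, and the means of 0.735 ± 0.502 and 2.35 ± 0.609 FPKM were 3.20-fold apart. Of the Ndufs3 transcript 39.7% is shared, in stretches of 50 bases, with other annotated transcripts (among them Gm12251), so its reads cannot be assigned with certainty. Ndufs8, which holds iron-sulfur clusters next to the quinone site, was at 2.96, 0.951 and 0.742 FPKM in the WT oocytes and at 0, 6.67, 4.02 and 3.38 FPKM in KO oocytes. The other 3 KO oocytes were above every WT oocyte, but KO1 had no read, which allows up to 0.161 FPKM. Ndufs7, which carries the last cluster before ubiquinone, was at 0.679, 1.90 and 0.418 FPKM in the WT oocytes and 0.072, 1.39, 0.818 and 0.228 FPKM in KO oocytes, with overlap. The core genes summed to 12.8 ± 2.61 FPKM in the WT oocytes and 10.8 ± 4.40 in KO oocytes, a ratio of 0.842 with overlap between the genotypes. The ratio was 0.719 with median-ratio scaling and 0.643 with quantile normalization, where the means were 14.9 ± 2.61 and 9.59 ± 3.15. Other genes of like level were not compared. The median difference was -0.27 for the 5 core genes above the filter and 0.16 for the 26 accessory genes. It was -0.37 and -0.01 with median-ratio scaling and -0.49 and -0.04 with quantile normalization, and the core and accessory genes were not tested against each other.

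Between genotypes, 9 of the 31 subunits above the filter were over 1.5-fold higher in KO oocytes, 2 were over 1.5-fold lower and 20 lay within 1.5-fold. Among all 8033 genes above the filter 22.6% were higher and 7.92% lower by that measure, so the subunits' shares were near those of all genes. The 5 subunits below the filter, when added, left both counts at 9 and 2. The median difference was 0.10 for the subunits and 0.18 for all genes. Ndufs8 and Ndufc1 reached 1 FPKM in 1 WT oocyte each, and Ndufa7, Ndufa9 and Ndufs1 in 2, so these genes passed the filter only with KO oocytes counted. Ndufa7, Ndufa9 and Ndufs8 are among the 9 higher genes. The 9 higher genes were Ndufa5, Ndufa7, Ndufa11, Ndufa3, Ndufb9, Ndufa9, Ndufa12, Ndufv3 and Ndufs8, and the lower pair were Ndufs3 and Ndufs4.

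Higher subunits outnumbered lower ones by less on the other scales tried. The all-gene median, 0.18 as deposited, was 0.02 after median-ratio scaling and 0.00 after quantile normalization. With median-ratio scaling 4 subunits were higher and 4 lower, beside 15.7% and 13.1% of all genes. With quantile normalization 5 were higher and 3 lower, beside 14.4% and 12.7% of all genes. The median of the subunits turned to -0.06 and -0.05. Ndufa5, Ndufa7, Ndufa11 and Ndufa3 were over 1.5-fold higher on all 3 scales, and Ndufs3 and Ndufs4 over 1.5-fold lower.

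**Figure D2:**
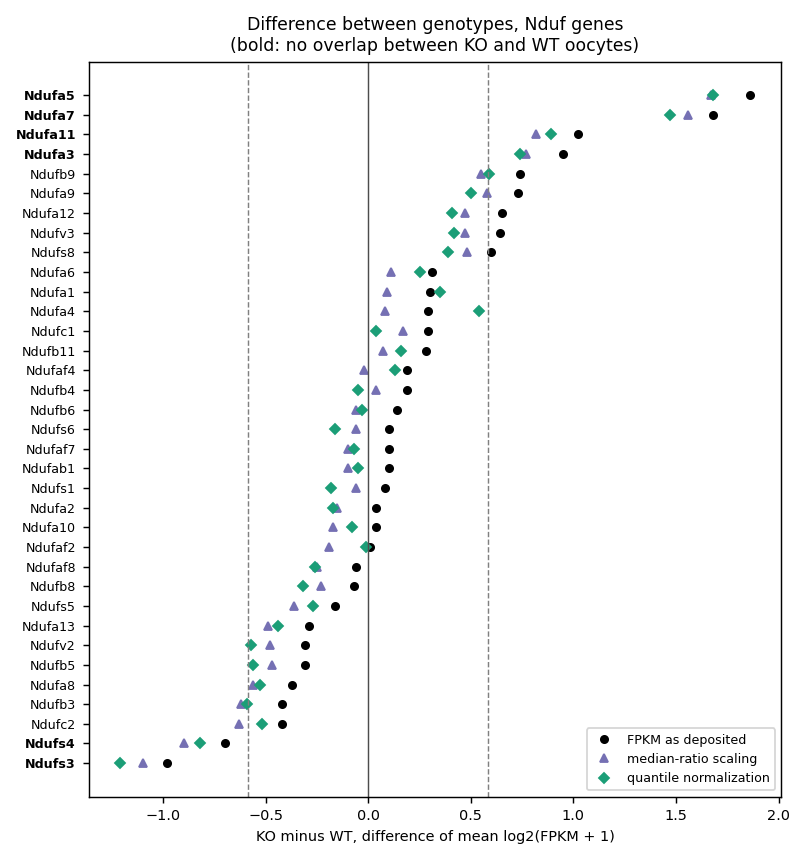
Mean log2(FPKM + 1) of KO oocytes less that of WT oocytes, for 35 Nduf genes above the filter, in deposited FPKM (circles), after median-ratio scaling (triangles) and after quantile normalization (diamonds). Dashed lines mark 1.5-fold, and the 6 genes in bold, Ndufa5, Ndufa7, Ndufa11, Ndufa3, Ndufs4 and Ndufs3, lie outside them on all 3 scales.

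In 6 subunits the oocytes of the genotypes did not overlap, and each of the 6 was more than 1.5-fold apart, with KO above WT in 4 and below WT in 2. Over all genes above the filter 14.5% were higher by that rule and 5.22% lower. The 4 of 31 higher subunits are thus no larger a share than the background.

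Ndufa5 was the member furthest above WT. It is an accessory subunit of the Q module on the matrix arm. Its level was 9.36, 3.75 and 8.49 FPKM in WT1, WT2 and WT4 and 15.9, 36.4, 39.8 and 23.3 FPKM in KO1 to KO4. The lowest KO oocyte, KO1, stood well above the highest WT oocyte. The means were 28.9 ± 11.2 and 7.20 ± 3.02 FPKM, 4.01-fold apart, and 3.23-fold apart without WT2. The lowest count behind them was the 122 reads of WT2, and none of the transcript is shared with another annotated gene.

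Ndufa7, an accessory subunit of the matrix arm, showed the largest ratio. It was at 1.05, 0.254 and 1.56 FPKM in the WT oocytes and 3.43, 9.32, 6.37 and 2.90 FPKM in KO oocytes. The lowest KO value, in KO4, was above the highest WT value, in WT4. The ratio of means was 5.77 (5.50 ± 2.97 against 0.955 ± 0.658 FPKM) and 4.22 without WT2, which held 20 reads.

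Ndufa11 and Ndufa3 sit in the membrane arm beside the matrix arm. Ndufa11, which also faces complex III in supercomplexes, was at 22.1, 12.1 and 24.7 FPKM in the WT oocytes and 33.1, 44.8, 46.2 and 34.2 FPKM in KO oocytes. The means of 39.6 ± 6.91 and 19.6 ± 6.65 FPKM were 2.02-fold apart, with KO1 the closest to WT. Ndufa3, a small membrane subunit, was at 7.83, 3.53 and 7 FPKM in the WT oocytes and 11.2, 15.2, 15.1 and 8.64 FPKM in KO oocytes. Its means, 12.5 ± 3.21 and 6.12 ± 2.28 FPKM, were 2.05-fold apart, and KO4 was closest to WT. Without WT2 both ratios were 1.69.

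Ndufs4 was the abundant subunit that was lower in KO oocytes. It caps the N module, and its loss in mice gives a complex I deficiency with disease of the nervous system. Its level was 31.1, 35 and 24.2 FPKM in WT1, WT2 and WT4 and 20.5, 12.7, 20.6 and 19.5 FPKM in KO1 to KO4. The gap between the nearest oocytes, WT4 and KO3, was small, while KO2 stood apart from the other KO oocytes. The means were 30.1 ± 5.49 and 18.3 ± 3.75 FPKM, 1.64-fold apart. The difference of -0.70 was smaller than 1.5-fold without WT2 or without KO2, whereas it was -0.90 with median-ratio scaling. None of the Ndufs4 transcript is shared with other genes.

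**Figure D3:**
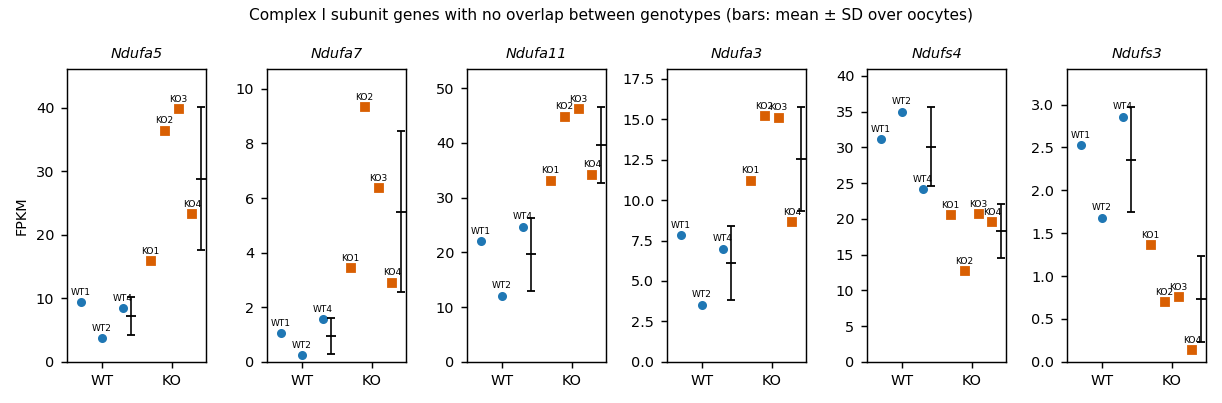
FPKM in each oocyte for the 6 subunit genes whose WT (circles) and KO (squares) oocytes do not overlap, with the mean and SD over oocytes as bars, each axis starting at 0. KO oocytes are higher for Ndufa5, Ndufa7, Ndufa11 and Ndufa3 and lower for Ndufs4 and Ndufs3, and WT2 is the lowest WT oocyte in 5 of the 6.

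The other 5 higher subunits overlapped between genotypes and rested in part on WT2. Ndufb9, of the distal membrane arm, had a KO mean of 25.3 ± 14.1 FPKM and a WT mean of 14 ± 6.26 FPKM. Ndufa9, at the junction of the arms, was at 5.17 ± 2.15 and 2.84 ± 1.71 FPKM. Ndufa12, an accessory subunit of the matrix arm, was at 7.78 ± 1.86 and 4.66 ± 1.53 FPKM. Ndufv3, of the N module, was at 6.82 ± 2.31 and 4.15 ± 2.29 FPKM. For these 4 genes and the core gene Ndufs8 the difference was under 1.5-fold without WT2, and the count of higher subunits was then 4. The share of all genes over 1.5-fold higher without WT2, an oocyte that was low for all genes as well, was not computed.

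Counts for each arm of the complex rest on 4 to 10 genes above the filter, and the arms were not tested against each other. Over all genes 22.6% were over 1.5-fold higher and 7.92% lower. In the N module 9 of 10 genes were above the filter, 3 higher and 1 lower. In the Q module 4 of 5 were above the filter, 2 higher and 1 lower. The proximal membrane arm had all 10 genes above the filter, 3 of them higher, and the distal arm had 8 of 11, with 1 higher. The most abundant subunits overlapped. Ndufa1, a small X-linked membrane subunit, was at 142, 35.6 and 155 FPKM in the WT oocytes and 119, 137, 118 and 89.7 FPKM in KO oocytes. Its ratio of means was 1.04, and 0.778 without WT2, the oocyte that stood apart. Ndufa6, which binds the acyl carrier protein on the matrix arm, was at 62.8, 23.5 and 54.3 FPKM in the WT oocytes and 46.9, 73.4, 57.1 and 42.9 FPKM in KO oocytes. The values of both genes overlapped between genotypes, and WT2 was the lowest oocyte for each.

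WT2 was the lowest WT oocyte for 20 of the 31 subunits, against 9 for WT4 and 2 for WT1. Among KO oocytes KO2 was the highest for 18 and KO4 the lowest for 16. The median deviation of the subunits from the mean of the 7 oocytes, on the log2(FPKM + 1) scale, was -0.25 in WT2, beside -0.19 for all genes above the filter. It was 0.13 in WT1 (all genes 0.01), -0.01 in WT4 (-0.10), 0.52 in KO2 (all genes 0.18), 0.20 in KO3 (0.03), -0.06 in KO1 (0.07) and -0.22 in KO4 (0.06). Within each genotype the oocytes spanned a wider range for the subunits than for all genes. The medians are over 31 and over 8033 genes, however, and no gene set of like size was compared. Summed over the 36 subunits, the level was 541, 351 and 527 FPKM in WT1, WT2 and WT4 and 455, 691, 584 and 422 FPKM in KO1 to KO4. The KO oocytes lay on both sides of WT1 and WT4, with means of 538 ± 124 and 473 ± 106 FPKM. The ratio was 1.14, and 1.01 without WT2.

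**Figure D4:**
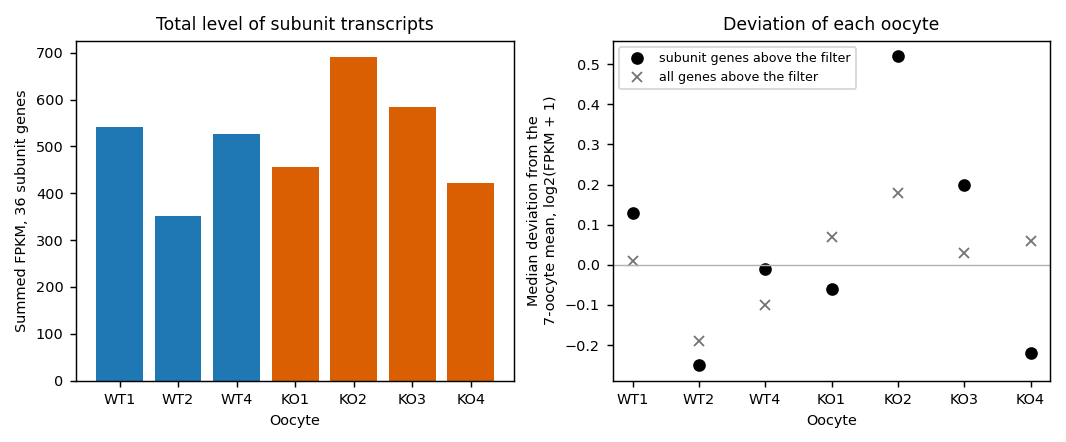
Left, FPKM summed over the 36 subunit genes in each oocyte (bars from 0; WT and KO in different colours). Right, median deviation of each oocyte from the 7-oocyte mean of log2(FPKM + 1) for the 31 subunit genes (filled circles) and the 8033 genes (crosses) above the filter; KO2 lies at 0.52 and KO4 at -0.22 for the subunits, beside 0.18 and 0.06 for all genes.

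The assembly factors named Ndufaf, which build the complex, showed no difference over 1.5-fold in either direction among the 4 of 8 above the filter. Over all genes above the filter 22.6% were higher and 7.92% lower, and 4 genes are too few to set against those shares. Ndufaf2, which stands in for its relative Ndufa12 during assembly, was at 51.5, 60.6 and 55.6 FPKM in the WT oocytes and 50.6, 64.5, 63 and 49 FPKM in KO oocytes. Most of its transcript (80.9%) is shared with others, among them the antisense gene B230220B15Rik, so the reads of that pair cannot be told apart unless strand was kept. Ndufaf4, of the early Q module, was at 44.5, 37 and 35.5 FPKM in the WT oocytes and 45.4, 49.4, 37.6 and 46 FPKM in KO oocytes, and the values overlapped. Ndufaf7, a methyltransferase of the early assembly steps, was at 9.70, 17.2 and 18.4 FPKM in the WT oocytes and 11.4, 14.8, 22.1 and 16.2 FPKM in KO oocytes. Ndufaf8, a partner of Ndufaf5, was at 10.8, 6.73 and 8.17 FPKM in the WT oocytes and 11.4, 6.95, 11.6 and 4.32 FPKM in KO oocytes. In both genes the values of the genotypes overlapped.

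The remaining assembly factors were below the filter. Ndufaf5, which hydroxylates Ndufs7, was at 0.743, 0.620 and 1.11 FPKM in WT1, WT2 and WT4 and at 0.299, 0.485, 0.015 and 0.400 FPKM in KO1 to KO4. These did not overlap and rest on 63, 62 and 84 reads in WT and 24, 48, 2 and 43 reads in KO oocytes. Ndufaf6 was the reverse, at 0.230, 0.015 and 0.099 FPKM in the WT oocytes and 0.373, 0.272, 0.277 and 0.683 FPKM in KO oocytes, again with no overlap. WT2 held 1 Ndufaf6 read. The share without overlap was not computed for genes below the filter. Of the 8033 genes above it, 1521 were higher and 718 lower without overlap. Ndufaf3 was at 0.691 ± 0.355 and 0.685 ± 0.713 FPKM in the WT oocytes and KO oocytes, and Ndufaf1 was listed at 0 in all 7. Summed over the 8 factors the level was 120.2 ± 2.28 FPKM in the WT oocytes and 127.5 ± 10.6 FPKM in KO oocytes. Their median difference of 0.06 turned to -0.15 with median-ratio scaling.

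Ndufa4, although named for complex I, encodes a subunit of cytochrome c oxidase, and it was the most abundant member. It was at 765, 403 and 725 FPKM in the WT oocytes and 737, 718, 807 and 713 FPKM in KO oocytes, with WT2 alone below the rest. The ratio of means was 1.18, and 0.998 without WT2. Its relative Ndufa4l2, a hypoxia-induced form, had 5 reads in WT2, 3 in KO3 and none elsewhere. The copies were at or near 0: Ndufa11b and Ndufs6b were listed at 0 in every oocyte, Ndufb4c had 1 read in KO1, and Ndufab1-ps had 3 reads in WT2 and 2 each in KO2 and KO3.

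Complex I also needs assembly factors with other symbols, of which 13 of 14 listed were in the table and 5 above the filter. As deposited none of these 5 was over 1.5-fold apart, beside 22.6% of all genes higher and 7.92% lower. Their median difference was -0.06. The median was -0.23 with median-ratio scaling and -0.31 with quantile normalization. On each of these scales 1 of the 5 genes, Aifm1, was over 1.5-fold lower, beside 13.1% and 12.7% of all genes. Aifm1, which supports the import of proteins into the intermembrane space, was at 4.51, 3.88 and 3.07 FPKM in the WT oocytes and 2.04, 2.46, 2.85 and 2.24 FPKM in KO oocytes, and every KO oocyte was below every WT oocyte. Its difference was -0.50 as deposited, -0.66 with median-ratio scaling and -0.75 with quantile normalization. Of all 8033 genes above the filter, 718 were lower without overlap. Of 10 genes of mitochondrial transcription and biogenesis, 4 were above the filter, 2 of them over 1.5-fold higher and none lower, beside 22.6% and 7.92% of all genes. Both, Tfam and Ppargc1b, reached 1 FPKM in 2 WT oocytes and in all 4 KO oocytes, and so passed the filter only with the genotype in which they were higher. Tfam, which packages and transcribes mitochondrial DNA, was at 1.09, 0.658 and 1.17 FPKM in the WT oocytes and 3.79, 3.25, 1.88 and 2.51 FPKM in KO oocytes. The coactivator gene Ppargc1b was at 1.07, 1.03 and 0.603 FPKM in the WT oocytes and 2.73, 2.20, 1.87 and 3 FPKM in KO oocytes. Neither overlapped between genotypes, beside 14.5% of all genes that were over 1.5-fold higher without overlap. In the nuclear genes of complexes II to V, 43 of 59 were above the filter, 5 higher and 3 lower, with a median of -0.04, beside 22.6% and 7.92% of all genes. With median-ratio scaling 3 were higher and 7 lower (median -0.22), beside 15.7% and 13.1% of all genes. After quantile normalization 3 were higher and 6 lower (median -0.08), beside 14.4% and 12.7% of all genes. The difference of these medians from those of the complex I subunits was not tested.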

How the data were processed

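RNA-seq of 7 single MII oocytes was read from 1 table. The authors deposited FPKM values per Ensembl gene, one column per oocyte, and no column was left unused (0). The submitters' processing notes name Bowtie 0.12.8, Bowtie2, TopHat, TopHat2 2.0.2, HTSeq and edgeR 3.1.10, and mm9 as build, but give no role to any of them. Strand in counting and the gene lengths used are not given in the sources used here, and spike-in values were not used here. Symbols came from reference tables and matched 87.4% of identifiers (97.4% above the filter).

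Differences are of mean log2(FPKM + 1), with a filter of FPKM 1 in 3 libraries and a limit of 1.5-fold. Groups are the labelled genotypes. Whole reads were recovered from the steps of the FPKM values (tolerance 0.01) for 18300 genes. They are the smallest counts that fit, and the steps of the method were tested on simulated data. Intervals (95%, exact Poisson) and floors (3 reads) cover counting error only. Shared sequence is the share of a gene's longest transcript in 50-base stretches found in other genes of GENCODE release 21 of the mouse annotation. Median-ratio scaling and quantile normalization were computed on the deposited FPKM. Python 3.11.15, numpy 2.4.6, pandas 2.3.3, scipy 1.17.1 and matplotlib 3.10.9 were used.

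Named with every oocyte's value are the nuclear core subunits, members over 1.5-fold apart without overlap, assembly factors above the filter and the 5 members of highest mean. Other members over 1.5-fold apart are given by mean and SD, and Ndufa4, Ndufa4l2 and copies by level. Assembly factors below the filter, Aifm1, Tfam and Ppargc1b were named after their values were seen. The members and lists were chosen with earlier results of these data known. The other WT oocyte that the design mentions was not analysed here. The values of 1 member, which is part of the counts, medians and sums, are not reported here.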

Additional observations from a re-analysis of the deposited data

Results flagged for a closer look

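In 2 of 38 groups of 4 KO oocytes 1 oocyte stood apart from the rest, its gap to the nearest, as a share of the group's range, being above Dixon's 95% critical value for 4 samples. Chance gives this in about 1 in 20 groups. Ndufs4 was at 12.7 FPKM in KO2 and at 20.5, 20.6 and 19.5 FPKM in KO1, KO3 and KO4 (gap 0.865 of the range). Ndufa13, the GRIM-19 subunit, was at 6.48 FPKM in KO4 and at 17.9, 17.7 and 18.1 FPKM in KO1, KO2 and KO3 (gap 0.965 of the range).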

How the results depend on the processing

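No paired analysis was possible because no result comes from a test and the replicate numbers mark no animal or day. The count of subunits over 1.5-fold higher, 9, was 5 with a pseudocount of 5, 4 with a filter at FPKM 10, 4 with median-ratio scaling and 5 with quantile normalization. It ranged from 4 to 10 when 1 oocyte was left out: 4 without WT2, 5 without KO2 and 5 without KO3. The count of lower subunits, 2, was 1 with a pseudocount of 5, 1 with a filter at FPKM 10 and 4 with median-ratio scaling, where Ndufb3 and Ndufc2 joined, and 1 to 3 when 1 oocyte was left out (1 without WT2). The median of the assembly factors, 0.06, was -0.15 with median-ratio scaling and -0.05 to 0.13 when 1 oocyte was left out. Shares of all genes were not computed for the pseudocounts, the filter at FPKM 10 or the left-out oocytes. These counts thus have no background beside them, and the cause of the shifts was not tested. Ndufa5, Ndufa7, Ndufa11 and Ndufa3 were over 1.5-fold higher in all 11 settings of pseudocount, scaling and left-out oocyte, and among these Ndufs3 was under 1.5-fold with a pseudocount of 5 alone. The filter at FPKM 10 leaves Ndufa7 and Ndufs3 out of the comparison. Of the 36 members, 9 had another sign with median-ratio scaling and 9 with quantile normalization. The subunits' median was 0.01 to 0.25, their summed ratio 1.01 to 1.23 and the Hira ratio 0.225 to 0.304 when 1 oocyte was left out. Genes with few reads, such as Ndufv1 and Ndufaf6, are limited by depth.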

Other observations

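The order of complex I genes by level depends on the gene lengths behind the FPKM values. Ndufab1, the mitochondrial acyl carrier protein, held 20600 reads over the 7 oocytes and Ndufa1 7600, although the FPKM of Ndufa1 was higher in every oocyte. In WT1, 1 FPKM stood for 175 reads of Ndufab1, 141 of Ndufaf4, 66.7 of Ndufa7 and 8.54 of Ndufa1. The value for Ndufab1 is 20.5 times that of Ndufa1, whereas its longest annotated transcript is 8.3 times as long. For Ndufa7 the corresponding ratios were 7.82 and 1.53. Such lengths cancel in a ratio of FPKM of 1 gene between oocytes, but not in the filter or in differences of log2(FPKM + 1). With a pseudocount of 0.1 the Ndufa7 difference of 1.68 was 2.52, and the Ndufs3 difference of -0.98 was -1.79. Subunit transcripts were short, with a median longest transcript of 1005 bases for the 31 above the filter and 3170 bases for all genes above it. Their median GC content was 50.3%, and 47.3% for all genes. Ndufa1, Ndufb4 and Ndufb6 are among 5 members whose difference between genotypes had the opposite sign without WT2, the others being Ndufa6 and Ndufa4.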
